A study of Triticum aestivum with 6 samples.

Results

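The genes described here were on in leaves of bread wheat (Triticum aestivum) at 23 °C and off, or almost off, in leaves at 4 °C. They were chosen by their levels in the authors' table: with all transcripts of a gene added up, less than 1 FPKM at 4 °C and no less than 10 FPKM at 23 °C. FPKM is a fragment number scaled by transcript length and by the size of the library. Of 99386 genes in the table, 83 met the rule, which is 0.764% of the 10862 genes that reached 10 FPKM at 23 °C, called warm-expressed genes from here on. Because these levels chose the genes, the fall itself is a description and carries no test.

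Leaf RNA came from 3 libraries of plants grown at 4 °C, which the labels give as 4 weeks with 2 weeks of cold, and from 3 libraries of plants grown at 23 °C, given as 2 weeks. Both groups stood under a photoperiod of 16 hours, in separate chambers, and both are labelled with an 18:3 lipid phenotype. Temperature, chamber and labelled weeks changed together and cannot be told apart. The table holds 1 value per transcript and condition, so no value below has an SD, an interval or a p-value, and the depth is unknown. In leaf tissue as a whole, fewer cells of a type and less RNA per cell cannot be told apart.

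Bread wheat is a hexaploid, so that most genes have counterparts, called homoeologs, on matching chromosomes of the A, B and D subgenomes. Wheat leaves that are kept in the cold acclimate: growth slows, and transcripts for freezing protection, membrane lipids and photosynthesis are known to change in level. A gene ID in the table carries its chromosome and arm (L for long, S for short), and chromosome 3B is not split. None of the 83 IDs matched the RefSeq gene table of wheat, made on assembly IWGSC CS RefSeq v2.1 of the cultivar Chinese Spring (0 matches). The IDs are those of IWGSC survey sequence gene models, a different naming, so the 0 is no property of these 83 genes. The genes thus have no names or functions here and are described by level, transcript number and place. Markers of leaf cells could not be looked up either, so the labelled tissue was not checked. No sequence is shown for the same reason.

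The 83 genes fell into those with a small remaining level in the cold and those with none listed. At 4 °C, 58 genes were above 0, and 25 were listed at exactly 0. Those listed at 0 are kept apart throughout, since a listed 0 may stand for an estimate that failed, and no fold is given for them. Among all warm-expressed genes, 0.534% were above 0 and under 1 FPKM at 4 °C and 0.23% were listed at 0.

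Most of the switched-off genes had moderate levels at 23 °C. Their median at 23 °C was 17.3 FPKM, with quartiles of 12.5 and 23.5 FPKM, while the median over all 10862 warm-expressed genes was 20.1 FPKM. At least 20 FPKM was reached by 32 of the 83 genes, at least 50 FPKM by 7 and at least 100 FPKM by 1. The share of genes switched off was 0.946% among the 5390 genes with 10 to under 20 FPKM at 23 °C and 0.707% among the 3537 genes with 20 to under 50 FPKM. It was 0.583% among the 1029 genes with 50 to under 100 FPKM and 0.11% among the 906 genes with at least 100 FPKM. The fixed maximum at 4 °C asks for a larger fall of a gene with a higher level, so the rule itself can set the order of these shares and nothing is read from it. Of the summed FPKM of the table, the 83 genes made up 0.00265% at 4 °C, against 0.196% at 23 °C.

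**Figure D1:**
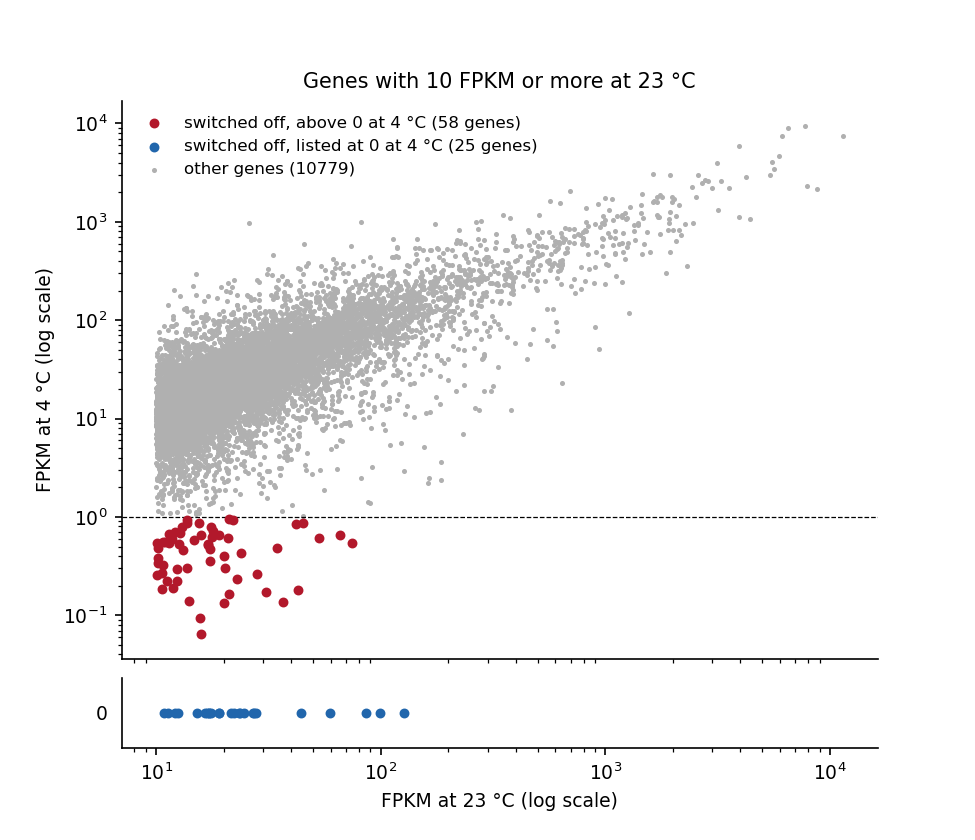
FPKM at 4 °C against FPKM at 23 °C, both on log scales, for the 10862 warm-expressed genes, 1 point per gene. Red points are the 58 switched-off genes above 0 at 4 °C, blue points in the lower strip the 25 listed at 0 at 4 °C, grey points the other 10779 genes, and the dashed line is 1 FPKM; blue points reach the highest levels at 23 °C among the switched-off genes.

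The 3 genes with the highest levels at 23 °C were all listed at 0 in the cold, as were 5 of the 15 highest. Traes_7AL_9EFCAA261, on the long arm of 7A, was listed at 0 at 4 °C and had 126.6 FPKM at 23 °C. Traes_7BS_1A4F10567 was listed at 0 at 4 °C and had 99.5 FPKM at 23 °C. These were the highest of the 83 at 23 °C, and both lay on chromosomes of homoeologous group 7. Traes_1DL_3F271A59E was listed at 0 at 4 °C and had 85.7 FPKM at 23 °C. Traes_1BL_E9E9EF1C2 was listed at 0 at 4 °C and had 59.2 FPKM at 23 °C. Traes_2BS_3DFCD0ABC was listed at 0 at 4 °C and had 44.3 FPKM at 23 °C. The last 3 lay on arms of groups 1 and 2. Over all 25 genes listed at 0, the level at 23 °C ranged from 10.8 to 126.6 FPKM, with a median of 21.6 FPKM. Over the 58 genes above 0 it ranged from 10.1 to 74.3 FPKM, with a median of 15.7 FPKM, so the ranges overlapped.

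Other genes with high levels at 23 °C were listed above 0 in the cold. Traes_2DL_5A7F74188 had 0.544 FPKM at 4 °C, against 74.3 FPKM at 23 °C. Traes_2DS_CAD0529AF had 0.657 FPKM at 4 °C, against 65.6 FPKM at 23 °C. Both lie on chromosome 2D, on opposite arms, and kept 0.733% and 1.0% of their 23 °C level. Traes_1AL_E12BF1698 had 0.613 FPKM at 4 °C, against 53.1 FPKM at 23 °C. Traes_3B_2F12EE7CD had 0.864 FPKM at 4 °C, against 44.9 FPKM at 23 °C. The remaining genes among the 15 highest at 23 °C were Traes_7AL_113B64D31 and Traes_2AS_75618D6FF, and 4 genes of 5BS and 5DS that are described with their arms. Traes_7AL_113B64D31 had 0.478 FPKM at 4 °C, against 34.5 FPKM at 23 °C. Traes_2AS_75618D6FF had 0.174 FPKM at 4 °C, against 30.8 FPKM at 23 °C.

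For the 58 genes above 0 at 4 °C, the level there was 0.375% to 6.72% of that at 23 °C, with a median of 2.81%. In fold terms they were 14.9-fold to 266-fold lower at 4 °C, with a median of 35.6-fold. The rule alone sets a fall of more than 10-fold. At least 20-fold lower were 47 of the 58 genes, and at least 100-fold lower were 10. Over the other 10779 warm-expressed genes, the median level at 4 °C was 102.8% of that at 23 °C. Median-of-ratios scaling, which equalises the typical gene, lowers values at 4 °C relative to 23 °C by 0.11 on the log2 scale. After it 85 genes met the rule, 25 of them listed at 0.

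Very low values between 0 and 0.1 FPKM were rare at 4 °C. The 5 genes with the lowest level above 0 at 4 °C were Traes_5DS_286CDF1FE1, Traes_3DL_949864F55, Traes_7DS_C77EF5B94, Traes_5BS_B3834F8C0 and Traes_7DS_507FCDE0F. Traes_5DS_286CDF1FE1 had 0.0652 FPKM at 4 °C, against 15.8 FPKM at 23 °C. Traes_3DL_949864F55 had 0.0942 FPKM at 4 °C, against 15.6 FPKM at 23 °C. No other switched-off gene lay above 0 and under 0.1 FPKM at 4 °C, against the 25 at exactly 0. Traes_7DS_C77EF5B94 had 0.133 FPKM at 4 °C, against 20.1 FPKM at 23 °C. Traes_7DS_507FCDE0F had 0.138 FPKM at 4 °C, against 14.03 FPKM at 23 °C. The gap was less marked with the temperatures exchanged, for genes that reached 10 FPKM at 4 °C but stayed under 1 FPKM at 23 °C.

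That exchanged class was larger. It held 251 genes, or 2.0% of the 12533 genes that reached 10 FPKM at 4 °C. Of these, 41 genes were listed at 0 at 23 °C, or 0.327% of the 12533, and 30 lay above 0 and under 0.1 FPKM. Genes at 0 made up 30.1% of the switched-off genes and 16.3% of the exchanged class. Between 0.1 and 0.2 FPKM lay 8 switched-off genes and 31 genes of the exchanged class. Between 0.2 and 0.5 FPKM these counts were 19 and 61, and between 0.5 and 1 FPKM 29 and 88. Both classes rest on the same 2 columns, so neither is a check of the other.

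**Figure D2:**
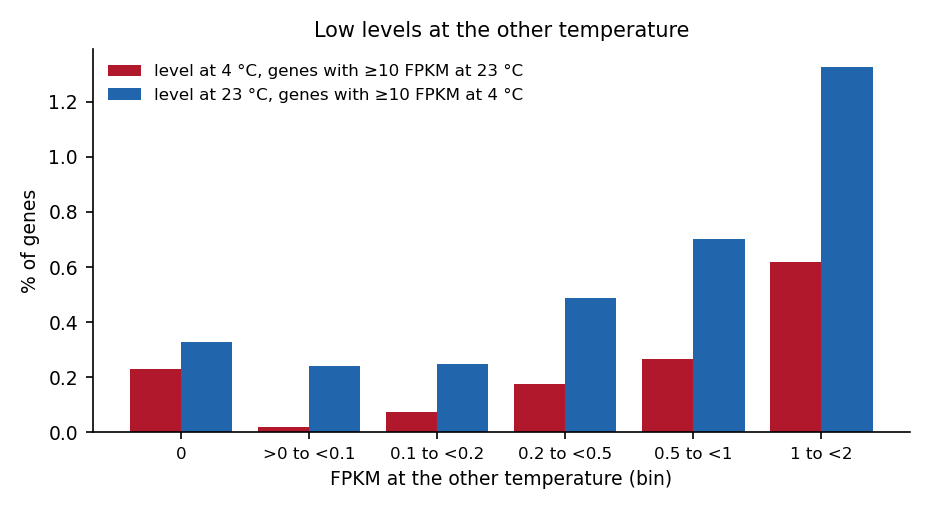
Share of genes, in percent, by level at the temperature where the gene was low, in bins of FPKM. Red bars give the level at 4 °C for the 10862 warm-expressed genes, blue bars the level at 23 °C for the 12533 genes that reached 10 FPKM at 4 °C; the red bar above 0 and under 0.1 FPKM stands for 2 genes, the one at 0 for 25.

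Values continued across both thresholds. Just inside the minimum at 23 °C, Traes_7DL_F7D784F1F had 0.259 FPKM at 4 °C, against 10.07 FPKM at 23 °C. Traes_7AL_B58112C48 had 0.544 FPKM at 4 °C, against 10.09 FPKM at 23 °C. Traes_7AS_2917DB320 had 0.386 FPKM at 4 °C, against 10.15 FPKM at 23 °C. These 3 genes lay on different arms of group 7, and the 3 just outside lay elsewhere. Traes_4AL_759A74D71 had 0.714 FPKM at 4 °C, against 9.97 FPKM at 23 °C. Traes_2DL_EB20A6431 was listed at 0 at 4 °C and had 9.97 FPKM at 23 °C. Traes_5AL_BAEFEBC90 had 0.413 FPKM at 4 °C, against 9.87 FPKM at 23 °C.

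Around the maximum at 4 °C, all 6 nearest genes were on chromosomes of groups 5 and 7. Just inside, Traes_5DL_5CF73B088 had 0.947 FPKM at 4 °C, against 21.1 FPKM at 23 °C. Traes_5BS_B27249405 had 0.932 FPKM at 4 °C, against 21.97 FPKM at 23 °C. Traes_5BL_36B4733ED had 0.923 FPKM at 4 °C, against 13.7 FPKM at 23 °C. The 3 genes just outside had levels at 23 °C both above and within this range. Traes_7AS_117ECD341 had 1.03 FPKM at 4 °C, against 44.9 FPKM at 23 °C. Traes_5AL_85C8D32D0 had 1.06 FPKM at 4 °C, against 14.97 FPKM at 23 °C. Traes_5AS_EBCEA6601 had 1.09 FPKM at 4 °C, against 15.4 FPKM at 23 °C. From 1 to under 2 FPKM at 4 °C lay 67 further warm-expressed genes.

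Switched-off genes had few assembled transcripts, a property that the rule does not name. A single transcript was listed for 58 of the 83 genes, or 69.9%, against 21.1% of all warm-expressed genes. The median number of transcripts was 1 among the switched-off genes and 3 among all 10862. Each of the 25 genes listed at 0 had 1 transcript, and so had 33 of the 58 genes above 0, or 56.9%. The share of genes switched off was 2.53% with 1 transcript, 0.515% with 2, 0.312% with 3 to 5 and 0.129% with 6 or more.

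The sum used by the rule bears on this count. A gene's level is a sum over its transcripts, each of which must be low for the sum to stay under 1 FPKM. With the most abundant transcript at 23 °C in place of the sum, 91 genes met the rule, 73 of them among the 83, and 63.7% of the 91 had 1 transcript. In that setting 8391 genes could pass, 2297 of them with 1 transcript, so the 21.1% is not its base share. In the exchanged class 41.0% of genes had 1 transcript, against 21.1% of all genes with at least 10 FPKM at 4 °C, and 32 of its 41 genes listed at 0 had 1. Just above the maximum, from 1 to under 2 FPKM at 4 °C, 28 of the 67 genes had 1 transcript, or 41.8%.

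**Figure D3:**
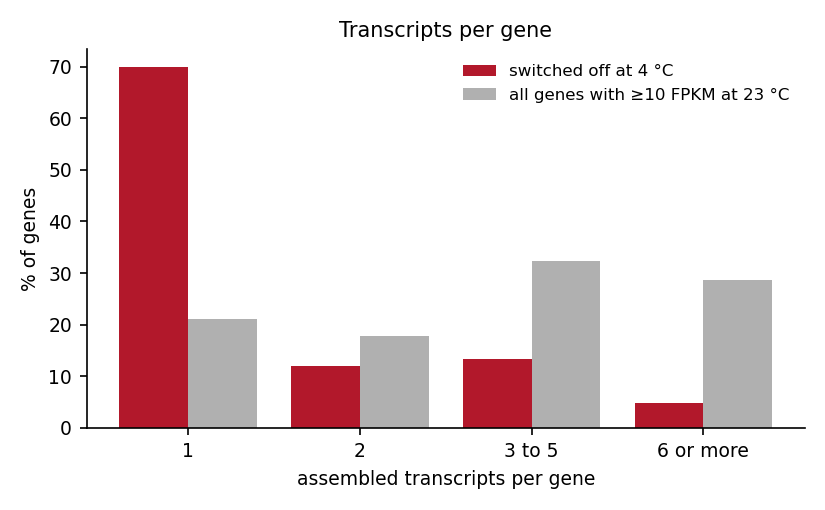
Share of genes, in percent, by the number of assembled transcripts per gene. Red bars are the 83 genes switched off at 4 °C and grey bars the 10862 warm-expressed genes; 69.9% of the red class and 21.1% of the grey class have 1 transcript.

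Where a switched-off gene had several transcripts, they were low together in the cold. The 25 such genes had 105 transcripts, of which 56 reached 1 FPKM at 23 °C. All 56 were lower at 4 °C, where the highest of them had 0.675 FPKM and 9 were listed at 0. The maximum of 1 FPKM for the sum forces this outcome. Of all 105 transcripts, 12 were higher at 4 °C than at 23 °C, the highest of these at 0.296 FPKM. The leading transcript held a median of 76.7% of a gene's level at 23 °C, against 72.0% over all warm-expressed genes with more than 1 transcript. It was listed at 0 at 4 °C in 4 of the 25 genes.

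A few genes show how the transcripts of 1 gene compared. The 9 transcripts of Traes_1AL_E12BF1698 summed to 0.613 FPKM at 4 °C, against 53.1 FPKM at 23 °C, and the leading one had 0.413 FPKM at 4 °C, against 41.0 FPKM at 23 °C. Traes_5DS_DCEAF6CC8 had a pair of transcripts of nearly equal level at 23 °C. One had 0.237 FPKM at 4 °C, against 11.2 FPKM at 23 °C, and the other was listed at 0 at 4 °C with 11.7 FPKM at 23 °C. Of the 12 transcripts of Traes_7AL_426F4F644, the leading one was listed at 0 at 4 °C and had 15.4 FPKM at 23 °C, while the gene summed to 0.521 FPKM at 4 °C. The 3 genes of this paragraph were picked after their values were seen. A gene can thus count as above 0 although its main transcript is listed at 0.

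The place of a gene comes from its ID and was not used by the rule. The 83 genes lay on 28 of the 41 arms. By subgenome, 24 were on A chromosomes, 25 on B and 34 on D, or 28.9%, 30.1% and 41.0%. The same shares over all warm-expressed genes were 30.1%, 32.1% and 37.8%. Switched off were 0.733% of the A genes, 0.718% of the B genes and 0.828% of the D genes, so the subgenomes lay close together around the 0.764% of all genes. Chromosome 6A held no switched-off gene, and neither did 4A, where 474 genes reached 10 FPKM at 23 °C. On 6A only 90 of 4038 gene IDs reached that level, against 372 of 3746 on 6B and 744 of 3869 on 6D. With so few genes, nothing is read from the absence on 6A.

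By homoeologous group the counts were less even. Group 5 held 26 of the 83 genes, or 31.3%, and 16.4% of all warm-expressed genes. Group 7 held 21, or 25.3%, against 13.7% of all such genes. The share switched off was 1.46% in group 5 and 1.41% in group 7, and 0.206% to 0.596% in each of the other groups. Group 4 had the lowest share, with 3 of 1456 genes.

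Within group 5 the short arms of 5B and 5D stood out, and these arms were picked after the counts were seen. On 5DS, 8 of 128 warm-expressed genes were switched off, or 6.25%. On 5BS it was 6 of 151, or 3.97%. The next highest share was 2.3%, on 7BS, with 4 of 174 genes, and 7AL followed with 5 of 252, or 1.98%. On the third short arm, 5AS, 1 of 128 genes was switched off, Traes_5AS_A94AC1C61, which was listed at 0 at 4 °C and had 22.2 FPKM at 23 °C. On the long arms of group 5 together it was 11 of 1372, or 0.802%. Homoeologs are alike in sequence, and a read of one can be counted for the other, so the genes of 5BS and 5DS need not be separate measurements, and the IDs do not say which of them are homoeologs.

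**Figure D4:**
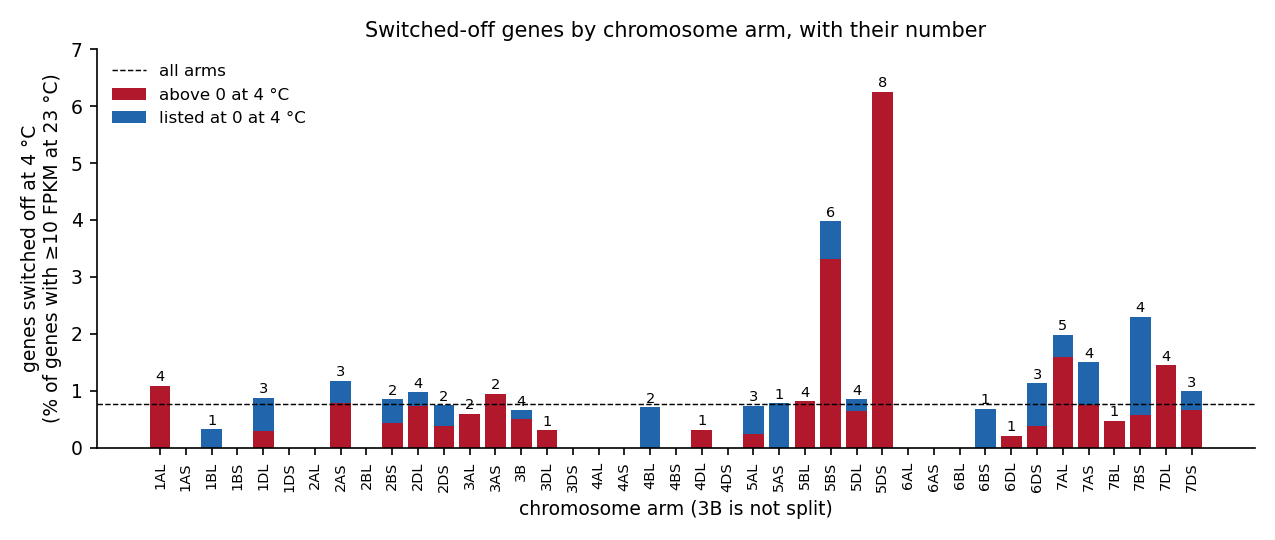
Share of warm-expressed genes that were switched off at 4 °C, in percent, by chromosome arm, with the number of switched-off genes above each bar. Red is the part above 0 at 4 °C, blue the part listed at 0, and the dashed line is the 0.764% over all arms; the tallest bars are 5DS with 6.25% and 5BS with 3.97%.

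The concentration on 5BS and 5DS was also counted apart for genes above 0 and genes listed at 0 in the cold. These arms held 13 of the 58 genes above 0, or 22.4%, and 1 of the 25 listed at 0. They held 2.57% of all warm-expressed genes. The 1 gene at 0 is too few to read a difference between these classes from. The counts were also split by the number of transcripts per gene. Of the 63 genes with 1 transcript on 5BS and 5DS, 12 were switched off, or 19.0%, against 46 of 2234, or 2.06%, on the other arms. Among genes with several transcripts it was 2 of 216, or 0.926%, against 23 of 8349, or 0.275%, and 2 genes are too few to read a difference from.

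Lower levels on these arms were also counted with a smaller fall than the rule asks for. With the switched-off genes included, 21 of the 279 warm-expressed genes of 5BS and 5DS were at least 4-fold lower at 4 °C on the log2(FPKM + 1) scale, or 7.53%, against 403 of 10583 on the other arms, or 3.81%, and 3.9% of all 10862. The switched-off genes themselves are part of these shares. Without them, of the 265 further genes of 5BS and 5DS with at least 10 FPKM at 23 °C, 7 were at least 4-fold lower at 4 °C, or 2.64%. Over all arms it was 3.16% of 10779 such genes. Their median log2 change, 4 °C minus 23 °C, was 0.14, against 0.04 on the other arms. From 1 to under 2 FPKM at 4 °C, 1 of 67 genes lay on these arms. In the exchanged class they held 4 of 251 genes, or 1.59%, against their 2.39% of all genes with at least 10 FPKM at 4 °C.

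The genes of 5DS ranged from 0.0652 to 0.846 FPKM at 4 °C and from 10.9 to 43.0 FPKM at 23 °C. Traes_5DS_3186C8F7D had 0.180 FPKM at 4 °C, against 43.0 FPKM at 23 °C. Traes_5DS_44EE488FC had 0.846 FPKM at 4 °C, against 41.9 FPKM at 23 °C. These had nearly equal levels at 23 °C but kept 0.419% and 2.02% of them. Traes_5DS_DCEAF6CC8 had 0.237 FPKM at 4 °C, against 22.9 FPKM at 23 °C. Traes_5DS_7FD4F7284 had 0.164 FPKM at 4 °C, against 21.0 FPKM at 23 °C. Traes_5DS_A92D3B63C had 0.653 FPKM at 4 °C, against 15.8 FPKM at 23 °C. It matched Traes_5DS_286CDF1FE1 in level at 23 °C, and lay well above it at 4 °C. Traes_5DS_2177C8BF4 had 0.225 FPKM at 4 °C, against 11.2 FPKM at 23 °C. Traes_5DS_CCCDA48421 had 0.561 FPKM at 4 °C, against 10.9 FPKM at 23 °C.

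The genes of 5BS ranged from 16.5 to 36.7 FPKM at 23 °C, a narrower range. Traes_5BS_B3834F8C0 had 0.138 FPKM at 4 °C, against 36.7 FPKM at 23 °C, the lowest remaining share of all 58 genes, at 0.375%. Traes_5BS_DF2486215 had 0.263 FPKM at 4 °C, against 28.2 FPKM at 23 °C. Traes_5BS_36C5B305D had 0.431 FPKM at 4 °C, against 23.8 FPKM at 23 °C. Traes_5BS_B27249405, named above as just inside the maximum, lies on this arm too. Traes_5BS_2C2072466 had 0.305 FPKM at 4 °C, against 20.3 FPKM at 23 °C. Traes_5BS_31F189259 was listed at 0 at 4 °C and had 16.5 FPKM at 23 °C. Of the 12 lowest ratios of 4 °C to 23 °C among warm-expressed genes above 0 at 4 °C, 6 were on 5BS or 5DS. All 12 were switched-off genes, and these arms held 22.4% of the 58 above 0. The 13 genes of these arms above 0 had a median of 0.263 FPKM at 4 °C, against 0.534 FPKM for the 45 on other arms. The rule used these same values, the arms were picked after their counts were seen, and genes at 0 are left out. Both comparisons are therefore a description and lend the concentration no support.

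**Figure D5:**
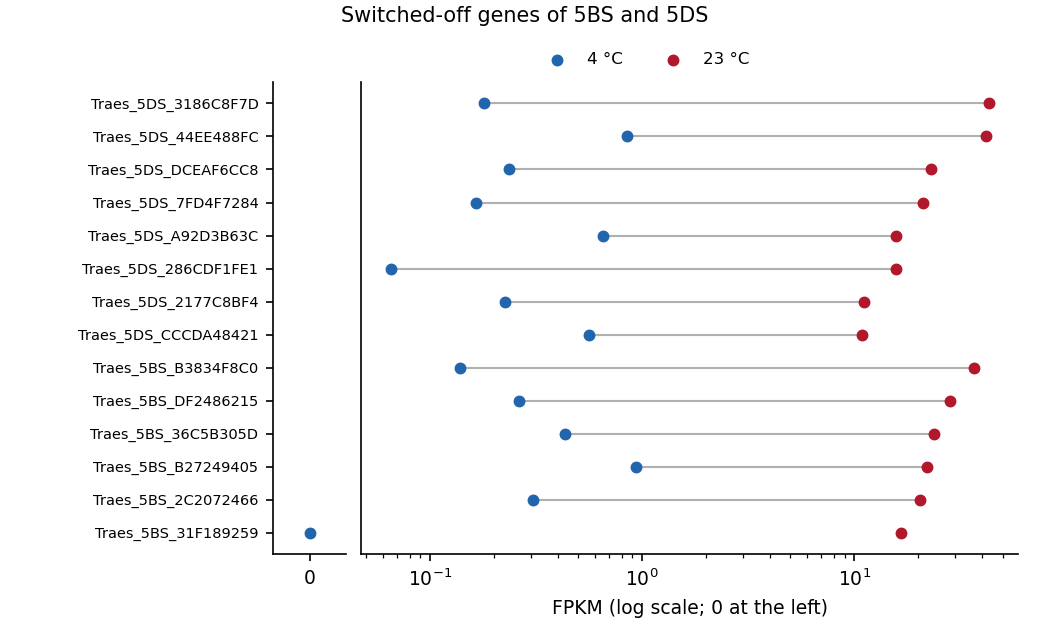
FPKM at 4 °C (blue) and at 23 °C (red), on a log scale with 0 in a strip at the left, for the 8 switched-off genes of 5DS (upper rows) and the 6 of 5BS (lower rows), with a grey line joining the values of a gene. Levels at 23 °C lie between 10.9 and 43.0 FPKM, and those above 0 at 4 °C between 0.0652 and 0.932 FPKM.

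On the other arms with at least 4 switched-off genes the highest gene is given by name and the rest by range. The share switched off was 1.5% of 267 warm-expressed genes on 7AS and 1.45% of 276 on 7DL, and those of 7AL and 7BS are given above. On 7AL, next to Traes_7AL_9EFCAA261, the other 4 genes had 0.478 to 0.728 FPKM at 4 °C and 10.1 to 34.5 FPKM at 23 °C. On 7BS, next to Traes_7BS_1A4F10567, 2 of the other 3 were listed at 0 at 4 °C, and the 3 had 10.2 to 19.0 FPKM at 23 °C. This made 3 of 4 genes at 0 on 7BS, against 0 of 8 on 5DS, arms set side by side after their counts were seen. Other arms lay at either end too, with 2 of 2 on 4BL and 0 of 4 on each of 1AL, 5BL and 7DL. On 7AS, Traes_7AS_E78E87CB8 was listed at 0 at 4 °C and had 27.3 FPKM at 23 °C, and 1 of the other 3 was also listed at 0. On 7DL, Traes_7DL_FB1EEEE4F had 0.662 FPKM at 4 °C, against 19.0 FPKM at 23 °C, and the other 3 had 0.259 to 0.793 FPKM at 4 °C. Of the 21 genes of group 7, 7 were listed at 0, and of the 26 of group 5, 5 were.

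Outside groups 5 and 7 such counts were reached on 1AL, 2DL and 3B. The share switched off was 1.09% of 367 warm-expressed genes on 1AL, 0.969% of 413 on 2DL and 0.658% of 608 on 3B. Over all arms it was 0.764%, so a count of 4 alone does not mark an arm as rich in switched-off genes. On 1AL, below Traes_1AL_E12BF1698, the other 3 genes had 0.469 to 0.611 FPKM at 4 °C and 11.8 to 20.9 FPKM at 23 °C. On 2DL, below Traes_2DL_5A7F74188, 1 of the other 3 was listed at 0 at 4 °C, and the 3 had 10.8 to 16.8 FPKM at 23 °C. On 3B, below Traes_3B_2F12EE7CD, 1 of the other 3 was listed at 0 at 4 °C, and the 3 had 10.2 to 20.1 FPKM at 23 °C. The long arms 5BL and 5DL also held 4 each, or 0.815% and 0.849% of their warm-expressed genes. Traes_5BL_94F42F9A7 had 0.864 FPKM at 4 °C, against 13.8 FPKM at 23 °C, and the other 3 of 5BL had 0.188 to 0.923 FPKM at 4 °C. On 5DL, below Traes_5DL_5CF73B088, the other 3 had 13.1 to 17.3 FPKM at 23 °C and 1 of them was listed at 0 at 4 °C.

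The order of the switched-off genes in the transcript numbering is given as a description. Transcript numbers run arm by arm, since 99.96% of successive genes shared an arm, but the numbers are not coordinates and give no distance. Each gene was placed by its first transcript number. Traes_7AL_113B64D31 and Traes_7BS_E337E82FB had transcripts in separate runs of numbers, so their places in the order are not unique. Among 55 pairs of successive switched-off genes on an arm, 0 had no other gene between them, and the fewest genes between were 14, on 5DS, between Traes_5DS_286CDF1FE1 and Traes_5DS_CCCDA48421. The 83 genes are so few among the 99386 gene IDs that adjacent ones would be rare if they were spread over the whole numbering, so nothing is read from the 0. On 5BS and 5DS, with 1202 and 1210 gene IDs, the 12 such pairs had 14 to 278 genes between them.

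The genes next to them in the numbering included lower and higher ones. Of 71 neighbours whose mean over both columns reached 1 FPKM, 5 were at least 2-fold lower at 4 °C on the log2(FPKM + 1) scale, or 7.04%, and 8 at least 2-fold higher, or 11.3%. Over neighbours of all warm-expressed genes these shares were 6.57% and 11.9% of 9517. Over all 42972 genes whose mean reached 1 FPKM they were 6.62% and 12.4%. With a mean of at least 5 FPKM, 4 of 34 neighbours were lower, or 11.8%, against 7.21% of neighbours of all warm-expressed genes. In that setting 14.7% were higher, against 16.2%. With a pseudocount of 0.1, 9 of 71 were lower, or 12.7%, against 952 of 9517. Within 3 places on each side, 18 of 231 neighbours were lower with a pseudocount of 1, or 7.79%, against 6.52%. With a mean of at least 5 FPKM it was 7 of 106, or 6.60%, against 6.98%. With a pseudocount of 0.1 these shares were 12.1% against 10.2%, and 8.49% against 7.91%. The difference thus changed with the setting, and so few neighbours leave its size undetermined. Of 22 genes directly next to those listed at 0 whose mean reached 1 FPKM, 1 was at least 2-fold lower and 3 at least 2-fold higher with a pseudocount of 1.

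Transcripts without a gene ID that are numbered beside a switched-off gene were looked at next. There were 22 such transcripts, beside 20 of the 83 genes, and 6 of them reached 1 FPKM at either temperature. The one beside Traes_3AS_D23A03DFB had 39.1 FPKM at 4 °C, against 4.65 FPKM at 23 °C, while the gene itself had 0.271 FPKM at 4 °C, against 10.6 FPKM at 23 °C. The one beside Traes_1AL_7BE5906B2 had 1.15 FPKM at 4 °C, against 15.4 FPKM at 23 °C, and the gene had 0.592 FPKM at 4 °C, against 11.8 FPKM at 23 °C. The neighbour thus went with the gene on 1AL and against it on 3AS; both genes were picked after their values were seen. Beside 6 of the 25 genes listed at 0 there was 1 such transcript each, and none of these 6 reached 1 FPKM at either temperature, the highest being 0.748 FPKM at 4 °C, against 0.572 FPKM at 23 °C. Within 3 numbers there were 21 transcripts beside 11 of these genes, and 4 reached 1 FPKM.

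Transcripts without a gene ID met the same levels more often. Of 2093 with at least 10 FPKM at 23 °C, 89 were under 1 FPKM at 4 °C, or 4.25%, and 28 of the 89 were listed at 0 at 4 °C. They are single transcripts and not sums, so this share is not on the same footing as the 0.764% of genes. Their median at 23 °C was 15.4 FPKM and their highest level there 324 FPKM, and 5 had at least 100 FPKM at 23 °C, against 1 of the 83 genes. Of the 25 among them numbered between genes of 1 and the same arm, 1 was on 5BS or 5DS, as were 24 of 643 such transcripts with at least 10 FPKM at 23 °C.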

How the data were processed

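The tools that the submitters' processing notes name are Cuffdiff 2.1.1, Cufflinks 2.1.1, STAR 2.3.0e, Trimmomatic 0.30 and CASAVA 1.8.2, without roles or settings. The genome build and annotation used were not given in the sources used here. Values deposited by the authors are FPKM, 1 per assembled transcript and condition, with no account of how libraries were combined. The cold column was taken as 4 °C and the control column as 23 °C, the names being those of the file headers. FPKM was summed per gene with pandas 2.3.3 under Python 3.11.15. The counting was run on a copy of the 23 °C column in which randomly chosen genes were set low. It found those genes, which checks the code alone and not the data. Changes on the log2 scale were computed as log2 of (FPKM + 1), which understates those of low genes. Folds and percentages of the 23 °C level are plain ratios without a pseudocount. For switched-off genes they rest on values under 1 FPKM at 4 °C, so small errors there can change them much. No test was possible without values per library. The genes and the choices below were made with earlier results of these data known.

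The rule for named genes gives the 15 highest at 23 °C, the 5 lowest above 0 at 4 °C, the 3 nearest each side of each threshold, and genes on arms with at least 4; on such arms other than 5BS and 5DS the highest is named and the rest are given by range. Alternatives were other level limits, scaling, a ratio rule, single transcripts and subsets of genes. Transcripts without a gene ID were kept out of the rule.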

Additional observations from a re-analysis of the deposited data

How the results depend on the processing

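No paired analysis was possible because no column belongs to a single library, and leaving out a library was not run for that reason. The number of switched-off genes (83) stayed within 1.5 times with scaling, the leading transcript, or without homoeologous group 6. Over the settings run, the A share lay between 20.7% and 34.0%, B between 25.9% and 39.0% and D between 33.1% and 44.8%. D was not always the largest: under the 10-fold rule with a pseudocount of 1, B had 39.0% and D 34.7%. The settings share genes and the same 2 columns, and no error was computed for these shares. With a minimum of 5 FPKM at 23 °C the rule gave 204 genes, 42 of them listed at 0 and 8.82% on 5BS and 5DS; with 20 FPKM it gave 32, 13 and 28.1%, and 81.2% had 1 transcript. With a maximum of 0.5 FPKM at 4 °C there were 54 genes, 79.6% with 1 transcript, and with 2 FPKM 150, 57.3% with 1 transcript. A 10-fold lower level in place of the rule, with a pseudocount of 1, gave 118 genes, 60 of them among the 83, and 58.5% with 1 transcript, with the mean filter and without. With a pseudocount of 0.1 it gave 360 genes with the filter (99 at 0, 6.39% on 5BS and 5DS) and 461 without (180 at 0, 5.86%), since low genes then enter. The shares on 5BS and 5DS and with 1 transcript were added to these settings after seeing the data. For the other limits at 4 °C, the genes that could pass are the same 10862, of which 21.1% had 1 transcript. That base share is not given for the minimum of 20 FPKM or the 10-fold rule, so nothing is read from 81.2% and 58.5%. The arms 5BS and 5DS held 2.53% of all genes with at least 5 FPKM at 23 °C and 2.74% of those with at least 20 FPKM. Of the genes that could pass the 10-fold rule with a pseudocount of 0.1, they held 2.465% with the filter and 2.49% without. Among the 58 genes above 0, a subset chosen after seeing the data, 56.9% had 1 transcript. The median at 23 °C was 15.7 FPKM for genes above 0 and 21.6 FPKM for those at 0. Within 3 numbers, 19 transcripts without a gene ID reached 1 FPKM, in place of 6. The unknown depth sets no detection limit for values at 0.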
